A study of Homo sapiens with 2 samples.

Results

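Core spliceosome particle proteins are the proteins that build the snRNPs (small nuclear ribonucleoproteins, particles of short RNA and protein) and the catalytic core of the machinery that removes introns from pre-mRNA. The members were 44 named genes, found by symbol in a deposited table of 13075 genes, and all 44 were present and passed the floor on low values. RNA came from HEK293, an established line of human embryonic kidney origin, after transfection of R338W TOP3B with a FLAG tag. The RIP (RNA immunoprecipitation) library held RNA that a monoclonal antibody against FLAG pulled from the lysate, and the input library was made with no antibody. Both came from cells at passage 15 that carried the transfected R338W form, and each group held 1 library, so no difference below has a replicate check and no test was possible. A RIP of untransfected cells was not analysed here. The chromosomal TOP3B gene was not stated to be removed, so the cells may hold both forms of the protein.

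TOP3B is a topoisomerase that cuts and rejoins both DNA and RNA, and R338W is known as a form that stays attached to the strand it has cut. The study's question was which RNAs such complexes hold. Introns are removed by particles that join a transcript in turn. U1 binds the start of the intron, U2 binds the branch point, and U5 joins together with U4 and U6. The small SNRP proteins include the Sm ring that encircles the snRNAs, whereas large proteins such as PRPF8 form the scaffold of the catalytic centre. The values here are levels of the mRNAs that encode these proteins, not of the proteins or of the snRNAs.

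The deposited values were read as FPKM, a level that counts fragments per kilobase of RNA and divides by the library total, so levels of different genes are compared per length. Steps in the low values gave estimated depths of 24800000 fragments for the RIP and 15200000 for the input. By these depths the members rested on at least 587 RIP fragments and 476 input fragments (both U2AF1). The transcript of the bait, TOP3B, stood at 30666 FPKM in the RIP against 15062 FPKM in the input; transfected and chromosomal copies share this row. Of 6 genes listed as marking the HEK293 lineage 4 were in the table, among them VIM, an intermediate filament gene, at 679 FPKM in the RIP against 544 FPKM in the input. PAX2 and LHX1 had no row, and the filter that made the table is not given. The 3 liver and 3 blood markers had no row either, and of 6 kidney tubule markers only LRP2 had a row.

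The mRNAs of the large proteins of U5 and of the U2 subcomplexes SF3a and SF3b were higher in the RIP than in the input, and those of the smallest Sm ring proteins, SNRPE, SNRPF and SNRPG, were lower under every scaling run. The log2 ratio of a gene was log2((RIP + 1)/(input + 1)), where 1 FPKM is a pseudocount and a positive value means a higher level in the RIP. EFTUD2, the GTPase of the U5 particle, had the highest ratio of all members, 1.93, and SNRPF, a subunit of the Sm ring, had the lowest, -0.97. Over the 44 members the median log2 ratio was 0.45, against 0.13 over the 11990 genes compared and 0.15 over 10513 protein-coding genes. Ratios were above 0 in 33 of 44 members and below 0 in 11. Of all genes compared, 58.7% were above 0 and 41.2% below, and of coding genes 60.8% and 39.1%. The ratio compares RNA pulled by the antibody with RNA of the input, so it is not a difference between groups of cells. Both libraries are bulk RNA, so a level does not tell how many cells hold the RNA.

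At a limit of 2-fold on this scale, 4 of 44 members (9.09%) were higher in the RIP, against 4.9% of all genes compared and 3.65% of coding genes. They were EFTUD2, SF3A1, PRPF6 and SART1. At that limit 0 members were lower, against 2.5% of all genes and 0.533% of coding genes. PRPF8 and SNRNP200 lay just inside the upper limit at 0.99 and 0.96, and SNRPF and SNRPE just inside the lower limit at -0.97 and -0.92. Without the pseudocount SNRPF was 2.01-fold lower in the RIP. At a limit of 1.5-fold, 15 members (34.1%) were higher, against 19.9% of all genes and 19.2% of coding genes. At that limit 3 members (6.82%) were lower, against 10.2% of all genes and 7.01% of coding genes.

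The sign of ratios between -0.41 and 0.12 depended on how the libraries were scaled. Scaling both libraries to the same sum over the table, a setting chosen after seeing the data, gave a median of 0.56 over all genes, against 0.13 with the values as deposited. Under it 3 of 44 members were below 0, namely SNRPF at -0.51, SNRPE at -0.45 and SNRPG at -0.21. The other 8 members that lay below 0 as deposited lay above 0 but below the median gene at 0.56. Centring on the median gene instead left 15 members below 0. The ratios are therefore best read against the median gene, at 0.13, and the values below are those as deposited.

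**Figure D1:**
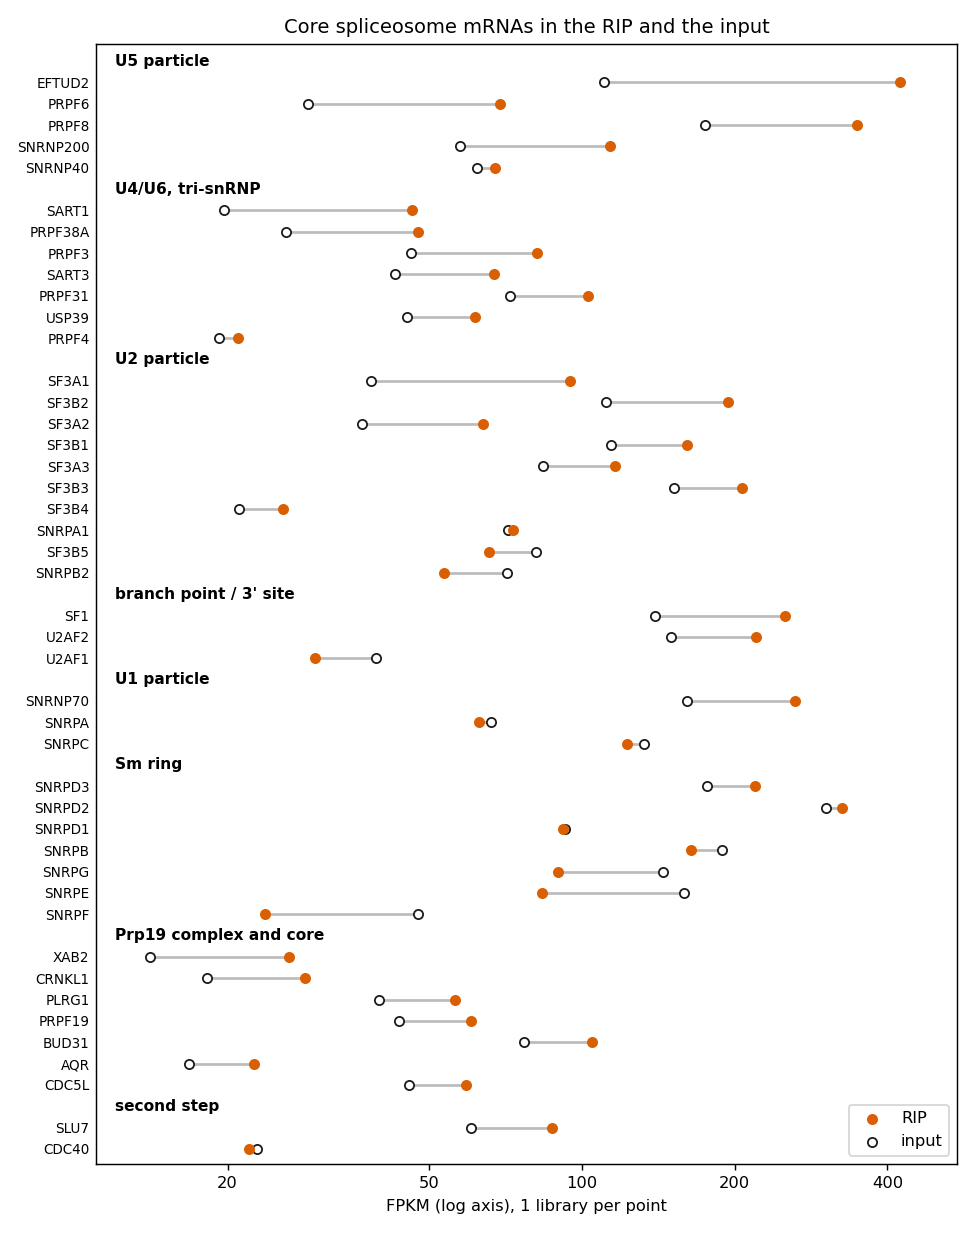
FPKM of each of the 44 members in the RIP (filled) and the input (open) on a log axis, with 1 library per point and genes grouped by particle. EFTUD2 shows the widest gap to the right, at 424 FPKM in the RIP against 110 FPKM in the input, and SNRPF and SNRPE show the widest gaps to the left.

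The coding sequences of SNRPF and SNRPG, both among the 3 members with the lowest ratios, are short enough to be shown whole, and the first 240 bases of the 2 members with the highest ratios are shown beside them to set the scale. They are spliced sequences from GENCODE release 29 on GRCh38, written 5′ to 3′, with the start codon and, where the coding sequence ends, the stop codon in capitals.
EFTUD2: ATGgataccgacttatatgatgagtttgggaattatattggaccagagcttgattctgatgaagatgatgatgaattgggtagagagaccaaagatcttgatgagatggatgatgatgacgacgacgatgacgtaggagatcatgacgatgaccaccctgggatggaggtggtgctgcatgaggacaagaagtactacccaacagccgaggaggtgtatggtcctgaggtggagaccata
SF3A1: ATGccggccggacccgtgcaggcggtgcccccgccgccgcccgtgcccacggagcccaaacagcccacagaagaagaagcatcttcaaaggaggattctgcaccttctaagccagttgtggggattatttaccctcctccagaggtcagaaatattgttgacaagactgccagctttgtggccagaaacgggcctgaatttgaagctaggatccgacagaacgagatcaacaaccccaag
SNRPF: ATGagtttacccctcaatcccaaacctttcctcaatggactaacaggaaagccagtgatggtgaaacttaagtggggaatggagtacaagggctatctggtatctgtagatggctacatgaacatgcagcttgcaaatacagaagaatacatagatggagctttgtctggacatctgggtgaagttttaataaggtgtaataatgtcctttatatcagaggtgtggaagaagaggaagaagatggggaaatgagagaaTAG
SNRPG: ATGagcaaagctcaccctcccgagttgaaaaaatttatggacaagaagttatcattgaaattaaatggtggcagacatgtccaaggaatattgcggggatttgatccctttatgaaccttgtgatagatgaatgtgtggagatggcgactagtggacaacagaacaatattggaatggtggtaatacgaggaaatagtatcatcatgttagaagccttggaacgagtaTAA
The stretches shown are 8.22% of the 2919 coding bases of EFTUD2 and 10.1% of the 2382 coding bases of SF3A1. The complete coding sequences have 261 bases for SNRPF and 231 for SNRPG. Their G and C content was 41.4% and 39.4%, against 46.7% in the stretch of EFTUD2 and 56.2% in that of SF3A1. Over the complete coding sequences it was 51.8% in EFTUD2 and 56.1% in SF3A1.

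The U5 particle stood highest of the particles, with a median log2 ratio of 0.99 over 5 genes, all above 0. EFTUD2 (ENSG00000108883.12, GRCh38 chromosome 17, 44849943 to 44899662, minus strand) had 424 FPKM in the RIP against 110 FPKM in the input, which is 3.84-fold higher. Its log2 ratio was the 4th highest among 10513 coding genes and the 82nd among all 11990. The protein is a GTPase related to translation elongation factor 2. Its estimated fragments, 46084 in the RIP against 7361 in the input, give its log2 ratio a counting standard error of about 0.018, which does not cover differences between experiments. GENCODE lists 26 transcripts of the gene, 14 of them with a retained intron, and no other gene of the deposited table overlaps it.

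PRPF8, the scaffold that holds the catalytic RNA, stood at 349 FPKM in the RIP against 175 FPKM in the input. SNRNP200, the helicase that unwinds the U4/U6 duplex, stood at 113 FPKM in the RIP against 57.6 FPKM in the input. The level of PRPF8 was 3.08 times that of SNRNP200 in the RIP, against 3.03 times in the input, so this pair kept nearly the same proportion. EFTUD2 did not keep its proportion to PRPF8, with 1.22 times its level in the RIP but 0.632 times in the input. PRPF6, which bridges U5 and U4/U6, stood at 69.0 FPKM in the RIP against 28.9 FPKM in the input (log2 ratio 1.23). SNRNP40, a smaller WD-repeat protein of U5, stood at 67.4 FPKM in the RIP against 62.0 FPKM in the input, and its log2 ratio of 0.12 lies at the median of all genes.

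The proteins of U4/U6 and the tri-snRNP had a median of 0.63 over 7 genes and a range of 0.11 to 1.19. PRPF4, the lowest, lay at -0.01 when centred on the median gene, and the other 6 lay above that gene. SART1, needed for the tri-snRNP to join the spliceosome, stood at 46.1 FPKM in the RIP against 19.7 FPKM in the input. PRPF3, a U4/U6 protein mutated in retinitis pigmentosa, stood at 81.7 FPKM in the RIP against 45.96 FPKM in the input (log2 ratio 0.82), while its binding partner PRPF4 stood at 20.9 FPKM in the RIP against 19.3 FPKM in the input (0.11). The partners thus lay at different ratios. PRPF31, another U4/U6 protein tied to retinitis pigmentosa, had a log2 ratio of 0.51. SART3, which helps to re-form U4/U6 after splicing, had 0.63, and USP39, a ubiquitin protease relative without protease activity, had 0.43. PRPF38A, needed for activation, stood at 47.5 FPKM in the RIP against 26.1 FPKM in the input (0.84). It overlaps ZCCHC11 on the opposite strand over 12558 bases, and ZCCHC11 stood at 101 FPKM in the RIP against 62.2 FPKM in the input. The library kit keeps strand, but whether the counting used it is not given in the sources used here, so reads of this pair may not be separated.

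The U2 particle had a median of 0.46 over 10 genes and a range of -0.41 to 1.28 as deposited. All 10 genes were above 0 at equal sums, where the median gene lay at 0.56 and SNRPA1, SF3B5 and SNRPB2 lay below it. Within it the 8 SF3a and SF3b genes had a median of 0.48, and 7 of them were above 0. SF3A1, the largest SF3a subunit (ENSG00000099995.18, chromosome 22, 30331988 to 30356947, minus strand), had 94.6 FPKM in the RIP against 38.3 FPKM in the input. Its complex partners were closer to the input: SF3A2 had a log2 ratio of 0.78 and SF3A3 had 0.47. The level of SF3A1 was 0.815 times that of SF3A3 in the RIP but 0.458 times in the input.

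SF3B1, which clamps the branch-point helix and is often mutated in blood cancers, stood at 161 FPKM in the RIP against 114 FPKM in the input (log2 ratio 0.49). SF3B2, its partner in the complex, stood at 194 FPKM in the RIP against 112 FPKM in the input (0.79). SF3B3, a large propeller protein, stood at 207 FPKM in the RIP against 152 FPKM in the input (0.45), and SF3B4, which binds RNA near the branch point, had 0.28. Unlike these, SF3B5, the smallest SF3b subunit in the list with 86 codons and a single exon, stood at 65.6 FPKM in the RIP against 81.2 FPKM in the input (-0.30). The ratio of SF3B5, like that of SNRPB2 below, was above 0 when both libraries were scaled to the same sum, but below the median gene at 0.56. SNRPB2, which binds a U2 stem-loop, stood at 53.4 FPKM in the RIP against 71.1 FPKM in the input (-0.41), and its partner SNRPA1 at 73.0 FPKM in the RIP against 71.6 FPKM in the input (0.03).

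The factors that first read the branch point and the 3′ splice site lay on both sides of the input as deposited. At equal sums U2AF1 was at 0.07 and all 3 genes were above 0, but U2AF1 stayed below the median gene at 0.56. SF1, which binds the branch point before U2 does, stood at 251 FPKM in the RIP against 140 FPKM in the input (log2 ratio 0.84). U2AF2, which binds the pyrimidine tract, stood at 220.0 FPKM in the RIP against 150.1 FPKM in the input (0.55). U2AF1, which reads the AG at the end of the intron, stood at 29.8 FPKM in the RIP against 39.3 FPKM in the input (-0.39). U2AF1 has a copy listed as U2AF1L5 on the same chromosome whose best-aligned transcript was identical over 897 of 897 bases, so the split of fragments between them is uncertain. The copy stood at 42.5 FPKM in the RIP against 58.1 FPKM in the input, and the summed level of both gave a log2 ratio of -0.42.

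In the U1 particle the large and small proteins differed. SNRNP70, the 437-codon RNA-binding protein of U1, stood at 263 FPKM in the RIP against 161 FPKM in the input (log2 ratio 0.70). SNRPA, which binds a U1 stem-loop, stood at 62.5 FPKM in the RIP against 66.2 FPKM in the input (-0.08). SNRPC, a zinc-finger protein that steadies U1 on the start of the intron, stood at 123 FPKM in the RIP against 133 FPKM in the input (-0.11). At equal sums SNRPA and SNRPC were at 0.38 and 0.36, below the median gene at 0.56.

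The Sm ring had the lowest median of the particles, -0.20 over 7 genes, with 5 ratios below 0 and 2 above. When centred on the median gene only SNRPD3 stayed above 0, at 0.19. Scaled to equal sums the ring's median was 0.26, against 0.56 for the median gene. SNRPB and SNRPD1 were then above 0 but below the median gene. SNRPF (ENSG00000139343.10, chromosome 12, 95858928 to 95903828, plus strand) had 23.7 FPKM in the RIP against 47.6 FPKM in the input. SNRPE had 83.6 FPKM in the RIP against 159 FPKM in the input (log2 ratio -0.92). SNRPG (chromosome 2, 70281362 to 70293771, minus strand) had 89.6 FPKM in the RIP against 144 FPKM in the input (-0.68). These 3 form a subcomplex of the ring, and the coding sequences of SNRPF and SNRPG are those printed above. With about 719, 1604 and 1016 RIP fragments and 886, 1879 and 1008 input fragments, their counting standard errors were about 0.072, 0.049 and 0.064 on the log2 scale. The other ring proteins lay closer to the input. SNRPB had a log2 ratio of -0.20 and SNRPD1 of -0.01, while SNRPD2 had 0.11 and SNRPD3 had 0.32. Although the ring holds 1 of each protein, the level of SNRPD3 was 9.26 times that of SNRPF in the RIP but 3.70 times in the input.

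Copies that can share fragments with the ring genes were also in the table. SNRPEP4, a processed copy of SNRPE that matched it at 98.6% of 279 aligned bases, stood at 3.82 FPKM in the RIP against 7.29 FPKM in the input. SNRPGP10 matched SNRPG at 98.2% of 225 bases and stood at 17.4 FPKM in the RIP against 15.1 FPKM in the input. SNRPGP4 matched at 93.4% of 228 bases and stood at 4.69 FPKM in the RIP against 21.4 FPKM in the input. SNRPGP18, at 85.9% of 213 bases, stood at 5.00 FPKM in the RIP against 7.95 FPKM in the input. Adding the copies to their source gene left the log2 ratio of SNRPE at -0.92 and gave -0.69 for SNRPG. The copies have only 214 to 279 bases, against fitted mean fragment lengths of 169 bases in the RIP and 166 in the input. Their fragment numbers were not estimated, so differences of single copies are uncertain. The sums also add FPKM of unequal lengths, since the SNRPG transcript has 625 bases.

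The 7 members of the Prp19 complex and around the catalytic core all had ratios between 0.37 and 0.86, with a median of 0.46. Of 18 further Prp19-related and step genes outside the members, described below, 12 were above 0 and 6 below. XAB2, a scaffold of repeats that also acts in DNA repair, stood at 26.4 FPKM in the RIP against 14.1 FPKM in the input. CRNKL1, a related repeat protein, had a log2 ratio of 0.62. PRPF19, the ubiquitin ligase that names the complex, had 0.46. Its partners PLRG1, a WD-repeat protein, and CDC5L, a MYB-like protein, had 0.49 and 0.37. AQR, a helicase that binds the intron, stood at 22.5 FPKM in the RIP against 16.8 FPKM in the input (0.40). BUD31, with only 144 codons, stood at 105 FPKM in the RIP against 76.7 FPKM in the input (0.44). That ratio was above those of SF3B5 and the small SNRP genes, of which SNRPD3 came nearest at 0.32. Of the factors for the second step, SLU7, which helps to choose the 3′ splice site, had 0.52. CDC40, known as PRP17 in yeast, stood at 22.04 FPKM in the RIP against 22.9 FPKM in the input (-0.05). At equal sums CDC40 was at 0.40, below the median gene at 0.56.

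**Figure D2:**
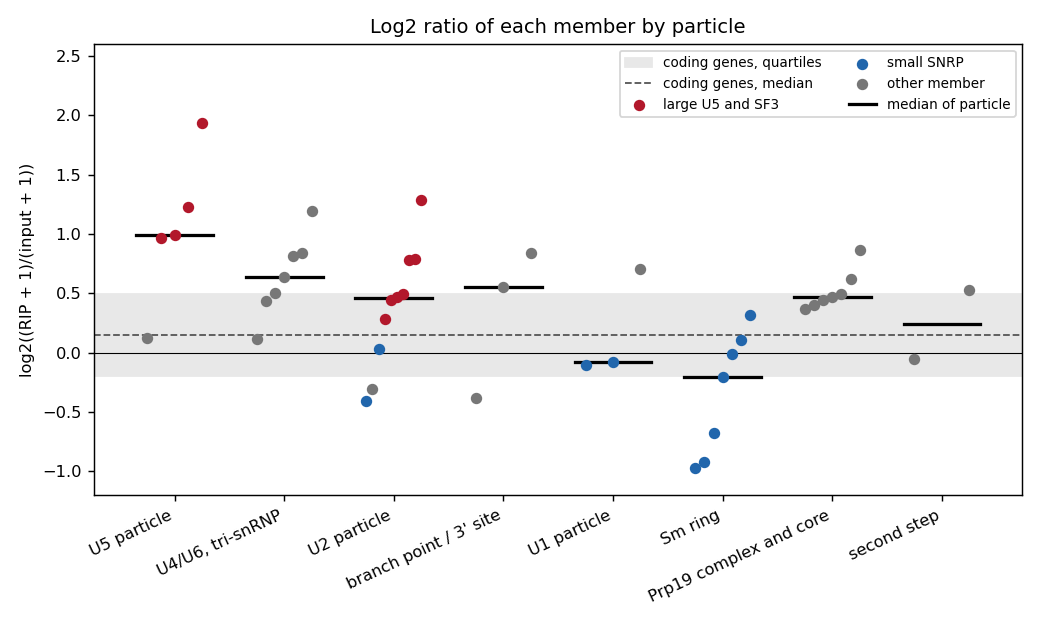
Log2 ratio of RIP over input for each member by particle, with black bars for the particle medians and grey for the quartiles of coding genes. The median runs from 0.99 for U5 to -0.20 for the Sm ring. With both libraries scaled to equal sums the medians of U1 and the ring are above 0 but below the median gene at 0.56.

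The members were then divided by protein size. The large group held the 11 U5 and SF3 genes with at least 400 codons, and the small group the 11 SNRP genes, all with fewer than 300. The median log2 ratio was 0.79 in the large group and -0.11 in the small group, a difference of 0.90. All 11 large genes were above 0 under every scaling run, against 3 of 11 small genes as deposited, 1 when centred on the median gene and 8 at equal sums. As deposited, 60.3% of coding genes from 300 to under 600 codons were above 0, 77.7% from 600 to under 1000 and 88.7% at 1000 or more. Among shorter coding genes 19.2% were above 0 under 150 codons and 35.5% from 150 to under 300. At equal sums the medians were 1.26 in the large group and 0.36 in the small group, against 0.56 for the median gene. All 11 large and 2 of 11 small genes lay above the median gene there, against all 11 large and 1 small gene as deposited. A scaling shifts both groups alike and is no test of their difference. The groups touched at 1 gene each, since SNRPD3 at 0.32 lay above SF3B4 at 0.28. The median level of the large group was 116 FPKM in the RIP against 83.7 FPKM in the input, and that of the small group was 89.6 FPKM in the RIP against 133 FPKM in the input. The large group's median level was thus 1.29 times that of the small group in the RIP but 0.631 times in the input, which turns their order round. By level EFTUD2 ranked 1st of the 44 members in the RIP and 14th in the input, and SNRPE ranked 21st in the RIP and 6th in the input.

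**Figure D3:**
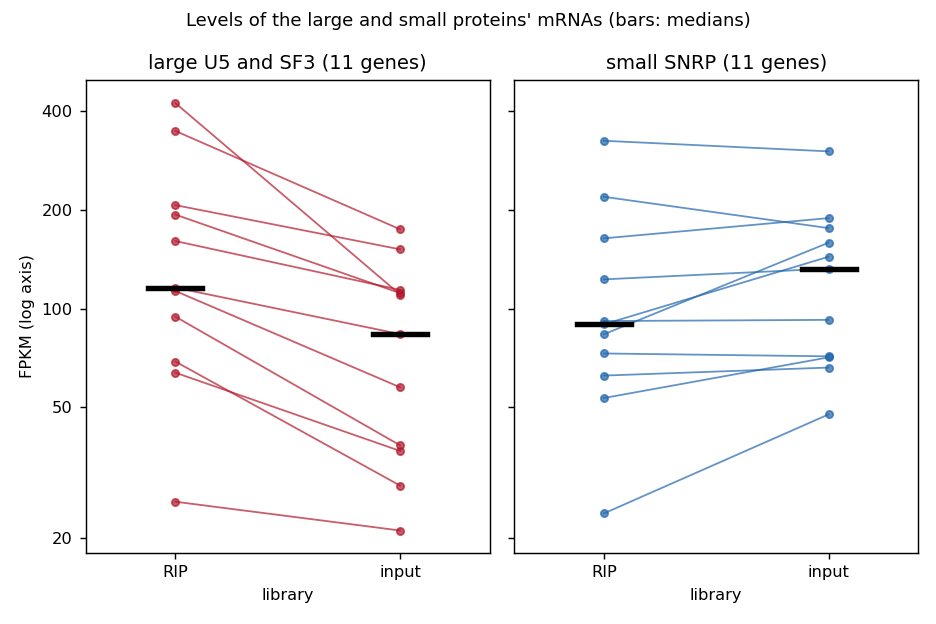
FPKM on a log axis of the 11 large U5 and SF3 genes and the 11 small SNRP genes in the RIP and the input, with a line per gene and black bars for medians. All 11 lines of the large group stand higher at the RIP, and the medians of the groups are 116 and 89.6 FPKM in the RIP and 83.7 and 133 FPKM in the input.

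Coding length moved with the ratio over the whole table as well. Over 10474 coding genes with an annotated coding sequence, the median log2 ratio was -0.36 under 150 codons, -0.15 from 150 to under 300, 0.11 from 300 to under 600, 0.35 from 600 to under 1000 and 0.53 at 1000 or more. Coding genes with at least 400 codons had a median of 0.33 and those under 300 had -0.20, a difference of 0.53. Between the large and small members the difference was 0.90, but the 2 values are not matched for length. The groups' median lengths were 941 and 126 codons, in ranges whose coding medians were 0.35 and -0.36. Across the members Spearman's rho of the ratio was 0.74 with codons and 0.72 with the number of exons (44 genes). Within the large group alone it was weaker, 0.32 with codons and 0.35 with exons, and within the small group 0.43 and -0.11. Across coding genes it was 0.51 and 0.57 (10474 genes). Longer coding sequences have more exons, all genes share the same 2 libraries, and genes are not independent replicates. The annotated 3′ UTR length showed little relation, with rho of -0.03 across the members and -0.07 across coding genes. The part of length in the contrast between the groups was not tested.

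Set against coding genes in the same length range, the members still spread unevenly. Of the 11 members with 600 to under 1000 codons, all lay above the median of their range, and 9 lay above its upper quartile of 0.62. EFTUD2 lay 1.59 above that median and SF3A1 0.94 above it. Of the 14 members with 300 to under 600 codons 13 lay above the median, CDC40 being the exception. The 5 members with at least 1000 codons were split, since PRPF8 and SNRNP200 lay 0.46 and 0.44 above the median of their range whereas SF3B1, SF3B3 and AQR lay below it at distances of -0.04, -0.08 and -0.13. Among the 8 members under 150 codons, BUD31 and SNRPD3 lay 0.81 and 0.68 above the median, and SNRPF, SNRPE and SNRPG lay below it at distances of -0.61, -0.56 and -0.32. Over the small group the median distance from the range was 0.04, with 6 genes above and 5 below, and over the large group it was 0.44, with 9 above and 2 below.

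**Figure D4:**
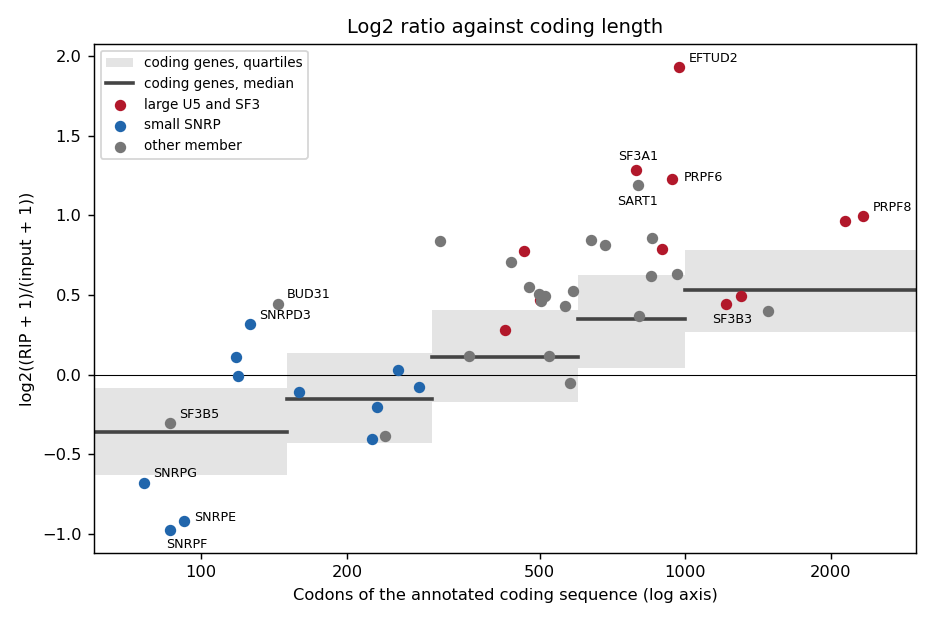
Log2 ratio of each member against the codons of its annotated coding sequence (log axis), over the median and quartiles of coding genes in 5 length ranges. The coding medians climb from -0.36 to 0.53, EFTUD2 stands 1.59 above its range, and SNRPF, SNRPE and SNRPG lie below the lower quartile of theirs.

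Other splicing genes, taken from 6 lists of 73 genes arranged by role, were all in the table. The lists were chosen with earlier results of these data known. Over all 73 the median log2 ratio was 0.21, with 3 genes (4.11%) at least 2-fold higher, near the 4.9% of all genes, and 0 lower. The LSm ring of U6, a relative of the Sm ring, had a median of -0.24 over 7 genes. At equal sums it was 0.23, below the median gene at 0.56. Its lowest members were LSM2, at 27.4 FPKM in the RIP against 48.8 FPKM in the input, and LSM5, at 47.1 FPKM in the RIP against 76.1 FPKM in the input, while LSM3 and LSM6 had log2 ratios of 0.49 and 0.25. The spliceosomal helicases, large enzymes that drive the rearrangements, had a median of 0.63 over 7 genes, all above 0. Their median length was 1031 codons, and coding genes with 1000 or more codons had a median of 0.53, with 88.7% above 0. DHX8, which frees the spliced mRNA, stood at 52.4 FPKM in the RIP against 26.8 FPKM in the input, and DHX38 at 66.0 FPKM in the RIP against 37.6 FPKM in the input, with DDX39B and DHX15 lowest at 0.39 and 0.34.

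Further proteins of the major particles had a median of 0.34 over 18 genes, and 2 of them (11.1%) were at least 2-fold higher, against 4.9% of all genes compared. These were the U1-associated PRPF39, at 65.3 FPKM in the RIP against 26.5 FPKM in the input, and LUC7L3, at 243 FPKM in the RIP against 103 FPKM in the input. The lowest were PHF5A, a small SF3b subunit with a log2 ratio of -0.66, and SMU1 with -0.37. SF3B6, a further small SF3b subunit with 125 codons, named after its value was seen, went the other way from PHF5A and SF3B5, at 209 FPKM in the RIP against 111 FPKM in the input (0.92). Further proteins of the Prp19 complex and the splicing steps had a median of 0.23 over 18 genes. PRPF18, a second-step factor, stood at 46.7 FPKM in the RIP against 22.1 FPKM in the input (1.04), and CWC25 had 0.86. The lowest were the prolyl isomerase PPIL1, at 21.7 FPKM in the RIP against 40.8 FPKM in the input (-0.88), and BCAS2, a small Prp19 complex subunit, with -0.50.

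Proteins of the minor spliceosome, which removes a rare class of introns, had a median of 0.09 over 10 genes. RNPC3, which links the U11 and U12 RNAs, had the highest log2 ratio, 0.85, followed by ZRSR2 with 0.45, and SNRNP35 and PDCD7 had the lowest, -0.46 and -0.29. Genes that assemble snRNPs, namely the SMN complex and the methylosome, had a median of 0.03 over 13 genes. CLNS1A, the chaperone that receives new Sm proteins, had 0.68 and GEMIN8 had 0.56, while STRAP and GEMIN7 had -0.55 and -0.42. SMN1 and SMN2 are near-identical copies, so their values of 0.03 and -0.09 cannot be told apart.

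**Figure D5:**
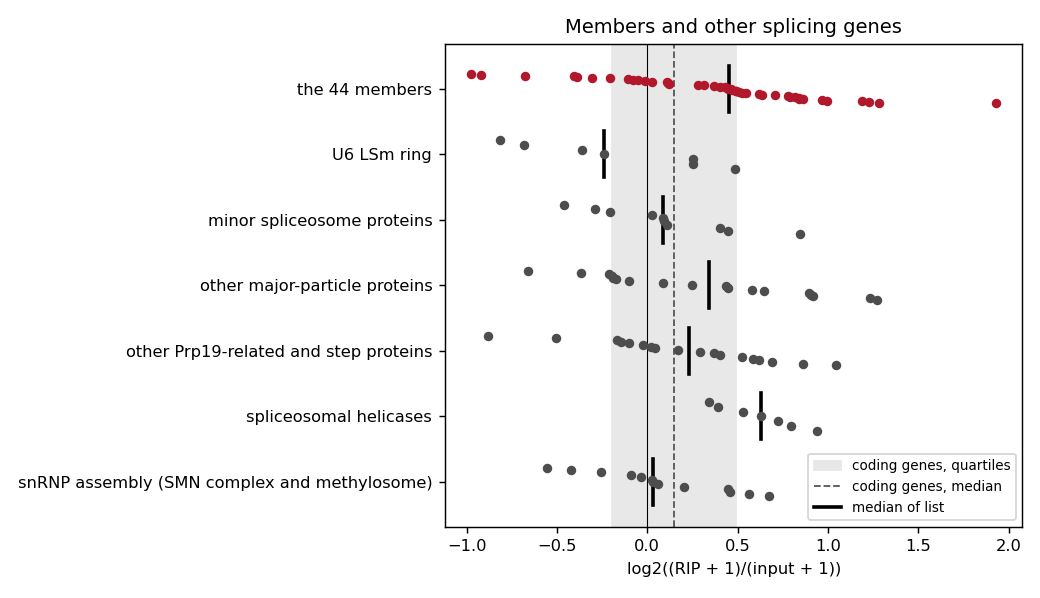
Log2 ratio of the 44 members (top) and of 73 other splicing genes in 6 lists, with a point per gene and black bars for medians over the quartiles of coding genes in grey. The helicases, with a median of 1031 codons, lie highest at a median of 0.63, against 0.53 for coding genes with 1000 or more codons. The U6 LSm ring lies lowest at -0.24, while the members' median is 0.45. With libraries scaled to equal sums the LSm ring's median is 0.23, against 0.56 for the median gene.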

How the data were processed

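RNA of 1 RIP and 1 input library was compared. Per the submitters' processing notes the tools were cutadapt 1.18, Trimmomatic 0.3, STAR 2.6.1 and RSEM 1.2.31 with build hg38; settings, annotation and any minimum level: not given in the sources used here. For each gene and library the authors deposited 1 value, and the deposited values were taken as FPKM, that is, scaled by the authors to transcript length and library total. The header names no unit; the values carry decimals and sum to 1090243 (RIP) and 1512049 (input). FPKM depends on the library's total, so abundant RNAs shift all other genes.

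Genes with at least 5 FPKM in either library (11990) were compared on log2((RIP + 1)/(input + 1)). The codons, exons, coordinates and coding sequences came from GENCODE release 29 (GRCh38), 1 principal transcript per gene, matched by Ensembl identifier without version for 12983 genes (99.3%). Depth was fitted to whole-fragment steps of genes with 1 transcript. At the fitted depths 65.2% of 198 RIP genes and 61.9% of 336 input genes were at most 0.15 from whole numbers, so depths are estimates, and fragment numbers used the principal transcript. The fit and the ratio were tested on simulated data. Copies were compared by local alignment with biopython 1.88. Python 3.11.15, numpy 2.4.6, pandas 2.3.3, scipy 1.17.1 and matplotlib 3.10.9 were used.

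With 1 library per group no p-value was computed. All members were named, with the 2 highest and 2 lowest genes of each other list. The members and lists were chosen with earlier results of these data known. Other pseudocounts, floors, fold limits, scalings and group definitions were tried. TMM and DESeq2 scaling were planned for counts only and were not run.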

Additional observations from a re-analysis of the deposited data

How the results depend on the processing

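No paired analysis was possible because the RIP and the input have 1 library each, and leaving out a library was not possible either. The difference between large and small genes, 0.90, lay between 0.87 and 0.99 under the other pseudocounts and group definitions. Floors and scalings could not test it, since all 44 members pass each floor and a scaling shifts both groups alike. Members at least 2-fold higher numbered 4 under each pseudocount and both planned scalings, 15 at the 1.5-fold limit and 16 with both libraries scaled to the same sum (added after seeing the data). That scaling also moved the members' median from 0.45 to 0.92. Members at least 2-fold lower numbered 0, but 1 with pseudocount 0.1, 2 when centred on the median gene or rescaled to coding genes without TOP3B, and 3 at the 1.5-fold limit. Over the 11990 genes compared the higher and lower counts were 588 (4.9%) and 300 (2.5%) as deposited. When centred they were 365 (3.04%) and 450 (3.75%), and at equal sums 2428 (20.3%) and 127 (1.06%). Rescaled to coding genes without TOP3B they were 355 (2.96%) and 453 (3.78%). With pseudocount 0.1 they were 745 (6.21%) and 365 (3.04%), and with pseudocount 5 they were 300 and 180. At the 1.5-fold limit they were 2386 (19.9%) and 1222 (10.2%). Of 220 single-member values under settings that could move them 91 stayed within their estimated counting interval and 129 moved beyond it. None of the 4 members past 2-fold changed sign, but 8 members at -0.41 to -0.01 were above 0 at equal sums, though below the median gene at 0.56. When centred on the median gene SNRNP40, PRPF4, SNRPD2 and SNRPA1 went the other way, from above 0 to -0.01, -0.01, -0.02 and -0.10. Depth limits these members little, but counting error does not cover variation between experiments.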
